A study of Mus musculus with 2 samples.

Results

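The immediate early genes described here are 10 genes, Fos, Fosb, Jun, Junb, Jund, Egr1, Atf3, Ier2, Ier3 and Nr4a1. They were taken by symbol from the 32285 gene rows of droplet single-cell count tables of whole mouse uterus, and all 10 symbols were found there. The study has 2 libraries of C57BL/6J females aged 6 months. The library labelled control pooled the uteri of 3 Prickle1 f/f mice, and the library labelled cKO pooled those of 3 Prickle1 f/f MiC mice. Both groups carry the floxed Prickle1 alleles, and the series title places the loss in the myometrium, the muscle wall of the uterus. The labels do not spell out MiC or name the promoter that drives recombination, and their genotype field gives wild-type for both samples. Each group is 1 library of pooled animals, so no value below has a replicate, no difference was tested, and intervals cover counting error only.

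Immediate early genes are transcribed within minutes of a stimulus, from promoters that need no new protein synthesis, and their messages decay fast. Fos and Jun family proteins pair through leucine zippers into AP-1, which binds TGANTCA sites, while Egr1 is a zinc finger factor and Nr4a1 an orphan nuclear receptor. Mincing and enzymatic digestion of a tissue is known to induce these genes, and the labels give 5 h in collagenase in a warm shaking bath for both libraries. In the uterus, stretch and oestrogen are also known to induce Fos.

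The start regions of 6 of the genes are shown because, in smooth muscle-like cells, Fos, Fosb, Atf3 and Nr4a1 were at lower levels in the cKO library while Junb and Ier3 were not. No promoter window was found for Egr1 and Ier2, which were also at lower levels in the cKO library in these cells. Promoter windows from RefSeq (GRCm38.p6), 250 bases before to 50 after the annotated start, were found for the other 8 of the 10 genes. Each is printed 5′ to 3′ on the strand of its gene, and capitals mark TGACG on either strand, the core of the CRE element bound by CREB and ATF factors. The windows are chr12:85473640-85473939 (plus strand) for Fos, chr7:19309996-19310295 (minus) for Fosb, chr15:101266596-101266895 (plus) for Nr4a1, chr1:191183284-191183583 (minus) for Atf3, chr8:84978699-84978998 (minus) for Junb and chr17:35821463-35821762 (plus) for Ier3. In the GENCODE vM21 annotation of the same build, the windows of Atf3 and Nr4a1 lie inside the gene, whose annotated start is further upstream.
Fos: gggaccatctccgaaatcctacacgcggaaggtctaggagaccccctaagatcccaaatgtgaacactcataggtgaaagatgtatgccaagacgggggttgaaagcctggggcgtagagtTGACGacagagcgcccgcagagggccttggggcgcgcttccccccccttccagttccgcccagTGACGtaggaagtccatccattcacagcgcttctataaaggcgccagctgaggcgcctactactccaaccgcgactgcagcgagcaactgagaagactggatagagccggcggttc
Fosb: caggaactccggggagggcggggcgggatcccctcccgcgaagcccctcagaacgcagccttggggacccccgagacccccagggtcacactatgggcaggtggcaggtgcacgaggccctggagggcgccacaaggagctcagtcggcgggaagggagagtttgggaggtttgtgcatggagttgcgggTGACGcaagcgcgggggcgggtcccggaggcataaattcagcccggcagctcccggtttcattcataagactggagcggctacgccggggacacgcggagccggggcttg
Nr4a1: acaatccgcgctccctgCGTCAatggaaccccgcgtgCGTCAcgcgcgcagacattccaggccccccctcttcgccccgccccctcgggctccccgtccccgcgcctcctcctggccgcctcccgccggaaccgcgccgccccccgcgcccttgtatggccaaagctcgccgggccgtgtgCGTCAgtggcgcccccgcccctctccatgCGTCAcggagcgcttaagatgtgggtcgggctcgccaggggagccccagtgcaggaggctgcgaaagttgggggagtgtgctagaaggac
Atf3: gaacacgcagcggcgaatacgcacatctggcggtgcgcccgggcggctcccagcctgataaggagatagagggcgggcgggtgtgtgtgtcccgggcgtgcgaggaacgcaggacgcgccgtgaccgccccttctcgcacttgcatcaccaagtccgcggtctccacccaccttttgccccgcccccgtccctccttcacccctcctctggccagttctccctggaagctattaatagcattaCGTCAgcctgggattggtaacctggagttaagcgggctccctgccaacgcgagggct
Junb: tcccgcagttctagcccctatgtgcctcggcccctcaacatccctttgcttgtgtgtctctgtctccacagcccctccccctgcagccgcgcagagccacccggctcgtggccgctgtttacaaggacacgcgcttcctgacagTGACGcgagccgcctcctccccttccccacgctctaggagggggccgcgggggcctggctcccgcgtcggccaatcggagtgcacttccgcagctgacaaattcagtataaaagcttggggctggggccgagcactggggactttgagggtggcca
Ier3: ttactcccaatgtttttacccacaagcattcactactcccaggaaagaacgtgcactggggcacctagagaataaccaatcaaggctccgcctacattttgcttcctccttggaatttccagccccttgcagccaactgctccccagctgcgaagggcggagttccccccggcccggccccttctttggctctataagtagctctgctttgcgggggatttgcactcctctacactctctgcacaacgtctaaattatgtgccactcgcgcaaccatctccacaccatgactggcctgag

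TGACG occurred 4 times in the Nr4a1 window, 2 times in that of Fos, and 1 time each in those of Fosb, Atf3 and Junb. It was not found in the windows of Ier3, Jun and Jund. The Jund window ends at base 70697788 of chr8, upstream of the GENCODE vM21 gene start at 70698949. What it lacks thus says nothing about that start. Of all 32851 promoters of this length in the table, 20.8% hold TGACG on either strand. The full palindrome TGACGTCA, which contains TGACG, was in none of the 8 windows and in 1.79% of all promoters. Neither the AP-1 site TGANTCA (7.81% of all promoters) nor the CArG box bound by SRF (1.63%) matched in the 8 windows, which says only that these letters lie outside them. In smooth muscle-like cells, Junb, whose window holds TGACG, was at no lower level in cKO than in control cells, whereas Jun, whose window lacks it, was lower. Both directions changed under some alternatives in the processing, given below. Any link between TGACG and these levels was not tested.

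The libraries held 45035801 (control) and 34261441 (cKO) unique molecular identifiers (UMIs), each a tagged copy of 1 transcript 3′ end, so levels are given as UMIs of a gene per 1000000 UMIs of its cell class (CPM) with no division by gene length. After filtering, 3490 and 3586 cells remained, with median depths of 4953 and 4903 UMIs, and 6 cell barcodes occurred in both libraries. Prickle1 itself had 96 UMIs (2.56 CPM, 95% interval 2.07 to 3.12) in the library labelled control and 265 (9.03 CPM, 7.97 to 10.2) in that labelled cKO. In smooth muscle-like cells it was at 14.8 CPM (8.10 to 24.9) and 24.4 CPM (18.1 to 32.0). The labels do not say which exons are removed, and a 3′ tag outside them checks nothing, so the labels are used as given. Cells were clustered without the 10 genes and 6 lists of related genes, and clusters were named from marker genes. The clusters are 28 in number, and Leiden clusters 0, 2, 8 and 10 (epithelium-like) and 25 (fibroblast-like) were drawn over 90% from 1 library.

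The 10 genes were detected in nearly every cell of the dissociated uterus: 95.6% of control cells and 94.7% of cKO cells had at least 1 UMI of any of them, and they took 0.546% and 0.436% of all cell UMIs. Summed over the 10 genes, the level in the named classes of the control library ran from 1275 CPM in T or NK cell-like cells to 13083 CPM in smooth muscle-like cells, with 8081 CPM in mesothelium-like, 6616 CPM in epithelium-like, 4433 CPM in macrophage or monocyte-like, 3851 CPM in fibroblast-like and 2838 CPM in dendritic cell-like cells. In the cKO library, T or NK cell-like cells were again the lowest named class at 1648 CPM, but mesothelium-like cells (11227 CPM, 31 cells) were above smooth muscle-like cells (8289 CPM). Droplets without a cell held the 10 genes at 4297 and 3215 CPM, above several cell classes. The largest share of a class's UMIs that free RNA could supply, bounded by markers of other classes, left at most 2.34% of the 10 genes' summed UMIs to it in the 6 named classes compared between libraries. For single genes this bound was higher. It reached 18.5% and 17.7% for Ier3 in control and cKO T or NK cell-like cells, and 9.32% for Egr1 in cKO dendritic cell-like cells.

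**Figure D1:**
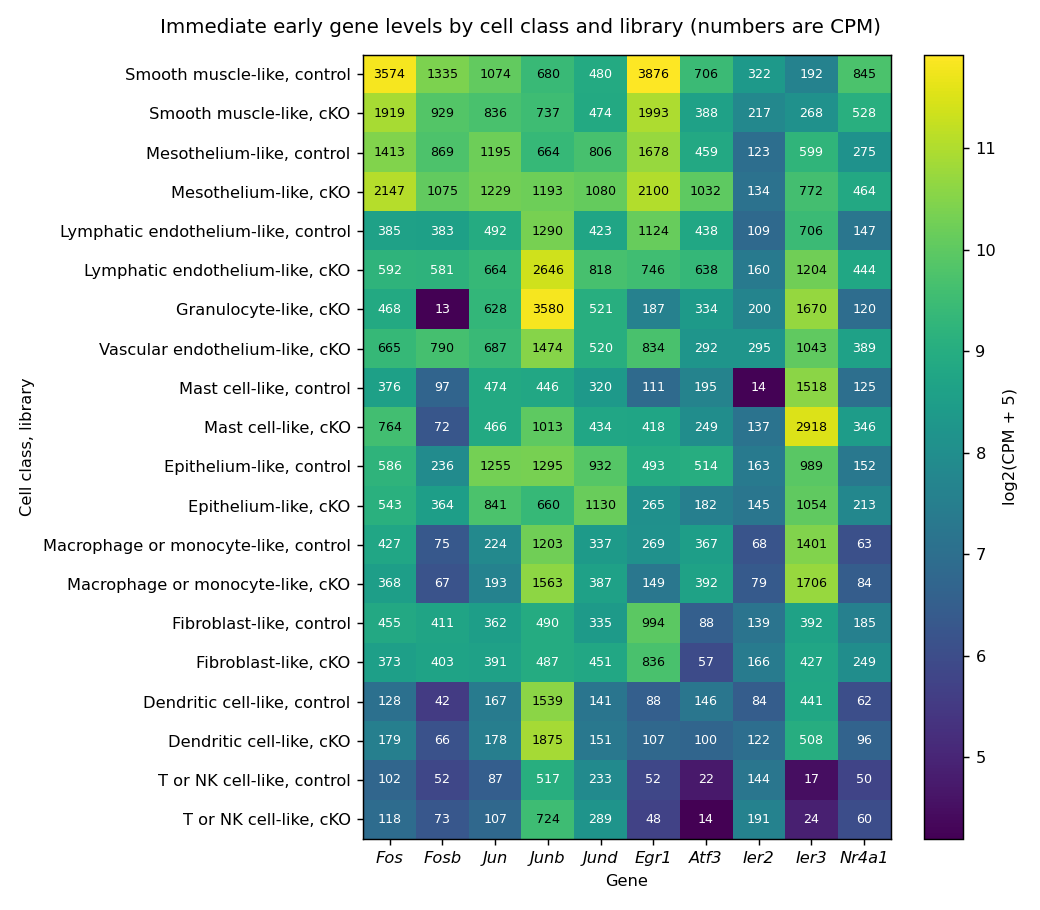
Heat map of the levels of the 10 genes (columns) in named cell classes with at least 20 cells in a library (rows, class and library); colour is log2(CPM + 5) and the printed numbers are CPM. Fos and Egr1 stand out in smooth muscle-like and mesothelium-like cells, Junb in granulocyte-like and lymphatic endothelium-like cells of the cKO library and in dendritic cell-like cells, and Ier3 in macrophage or monocyte-like and mast cell-like cells.

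Fos and Fosb encode the partners that must pair with a Jun protein to bind DNA. Fos was highest in smooth muscle-like cells of the control library at 3574 CPM (95% interval 3455 to 3697), then in mesothelium-like cells at 1413 CPM (1338 to 1492) and epithelium-like cells at 586 CPM (575 to 597). Fibroblast-like (455 CPM), macrophage or monocyte-like (427 CPM), lymphatic endothelium-like (385 CPM) and mast cell-like cells (376 CPM) followed, each overlapping the next in its interval. Dendritic cell-like and T or NK cell-like cells, at 128 and 102 CPM, overlapped each other. In the cKO library the leading pair changed places, with 2147 CPM (2027 to 2272) in mesothelium-like and 1919 CPM (1860 to 1979) in smooth muscle-like cells. Fosb was low in immune cells: it was at 1335 CPM in smooth muscle-like, 869 CPM in mesothelium-like, 411 CPM in fibroblast-like and 236 CPM in epithelium-like cells of the control library, against 41.8 to 97.5 CPM in its 4 immune classes.

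The Jun family members, which can pair with each other as well as with Fos proteins, were spread differently from one another. Jun led in epithelium-like (1255 CPM), mesothelium-like (1195 CPM) and smooth muscle-like cells (1074 CPM) of the control library, whose intervals each overlapped the next. Junb was highest in dendritic cell-like cells at 1539 CPM (1482 to 1599), where it made up 54.2% of the UMIs of the 10 genes, and in the cKO library it reached 3580 CPM in 31 granulocyte-like cells and 2646 CPM in 75 lymphatic endothelium-like cells. T or NK cell-like cells, the lowest named control class for Fos, Jun, Egr1, Atf3, Ier3 and Nr4a1, held Junb at 517 CPM, near its level in fibroblast-like cells (490 CPM). Jund, which is known for steady rather than induced transcription, was at 932 CPM in control and 1130 CPM in cKO epithelium-like cells and lowest in dendritic cell-like cells, at 141 and 151 CPM.

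Egr1 was highest in the same 2 classes as Fos. It was at 3876 CPM (3751 to 4004) in smooth muscle-like, 1678 CPM in mesothelium-like, 1124 CPM in lymphatic endothelium-like and 994 CPM in fibroblast-like cells of the control library. In fibroblast-like cells it was the leading member, with 25.8% (control) and 21.8% (cKO) of the 10 genes' UMIs. Nr4a1 showed the same leading classes at lower levels, 845 CPM in smooth muscle-like and 275 CPM in mesothelium-like control cells. All immune classes except cKO mast cell-like cells held Nr4a1 at or below 125 CPM.

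Atf3, a stress-induced repressor of the CREB/ATF family, was low in fibroblast-like cells (87.9 CPM control, 57.1 CPM cKO) against 706 and 388 CPM in smooth muscle-like cells. Ier3, which encodes a short-lived regulator of survival signalling, had an order of its own. It was highest in mast cell-like cells (1518 and 2918 CPM) and macrophage or monocyte-like cells (1401 and 1706 CPM), and in T or NK cell-like cells it was at 17.3 and 24.5 CPM. Smooth muscle-like cells, first for Fos, Fosb, Egr1, Atf3, Ier2 and Nr4a1 in the control library, were next to last for Ier3 at 192 CPM (165 to 222). Ier2, a small nuclear protein, ran from 68.5 CPM in macrophage or monocyte-like to 322 CPM in smooth muscle-like control cells, apart from 1 UMI (13.9 CPM) in 42 mast cell-like cells.

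Across 47 sums of a cluster in a library (each of at least 20 cells), Egr1 and Fosb had the most similar levels (Pearson r = 0.88), followed by Egr1 and Fos (r = 0.84) and Fos and Fosb (r = 0.80). Junb was less similar to these, with r = 0.20 to Fosb, r = 0.23 to Egr1 and r = 0.44 to Fos, and Ier2 and Ier3 were unrelated (r = -0.01). The points share 2 libraries and differ in depth, so these correlations describe the sums only. Among 2905 other genes, those whose level over 17 class-by-library sums was most like the summed level of the 10 genes were Bag3 (r = 0.91), Eif5 (0.89), Ifrd1 (0.89), Mpp5 (0.88), Ppp1r15a (0.88), Lmna (0.87), Pim3 (0.87), Eif4a1 (0.86), Atf4 (0.86) and Coq10b (0.86). Bag3, a co-chaperone gene, ran from 10.7 to 501 CPM over these sums and was highest in smooth muscle-like cells of the cKO library, where the 10 genes were lower than in the control library.

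The comparison of the libraries asks whether cells of a uterus labelled as lacking Prickle1 in the myometrium carried other levels of the 10 genes, and smooth muscle-like cells are the class that the title singles out. In these cells (313 control, 680 cKO) Fos, Fosb, Jun, Egr1, Atf3, Ier2 and Nr4a1 were at lower levels in the library labelled cKO, and Junb, Jund and Ier3 were not clearly lower. Egr1 was at 3876 CPM in the control and 1993 CPM in the cKO library, a log2 ratio of -0.96 (95% interval -1.02 to -0.90) after adding 5 CPM to each level, the scale of every log2 ratio below. The interval is that of the plain CPM ratio, without the added 5 CPM. Fos was at 3574 and 1919 CPM (log2 ratio -0.90, -0.96 to -0.83). Atf3 was at 706 and 388 CPM (-0.85, -1.01 to -0.71). These 3 genes differed most.

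Nr4a1 was at 845 and 528 CPM (log2 ratio -0.67), Ier2 at 322 and 217 CPM (-0.56), Fosb at 1335 and 929 CPM (-0.52) and Jun at 1074 and 836 CPM (-0.36). The intervals of all 4 lay below 0, but without cluster 17 the ratio of Jun was 0.11 and that of Ier2 -0.10. Jund was at 480 and 474 CPM (log2 ratio -0.02, -0.18 to 0.15) and Junb at 680 and 737 CPM (0.12, -0.02 to 0.25), with no difference detectable at this depth, and Junb changed sign to -0.10 under another scaling of the libraries. Ier3 was higher in the cKO library, 268 against 192 CPM (0.48, 0.24 to 0.74), although its interval held 0 within clusters 12 and 17 alone. Thus 8 of 10 genes were lower and 2 higher, and 7 lower ratios and 1 higher ratio had intervals that left out 0. The share of all genes with such intervals is not given here, so these interval counts have no background. The median log2 ratio of the 10 genes was -0.54 (median of the interval bounds -0.70 to -0.39), beside 0.21 for all 8718 genes with at least 10 CPM in either library. None of the 10 genes was past 2-fold in either direction, where 2.05% of all genes were lower and 3.87% higher by at least 2-fold.

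**Figure D2:**
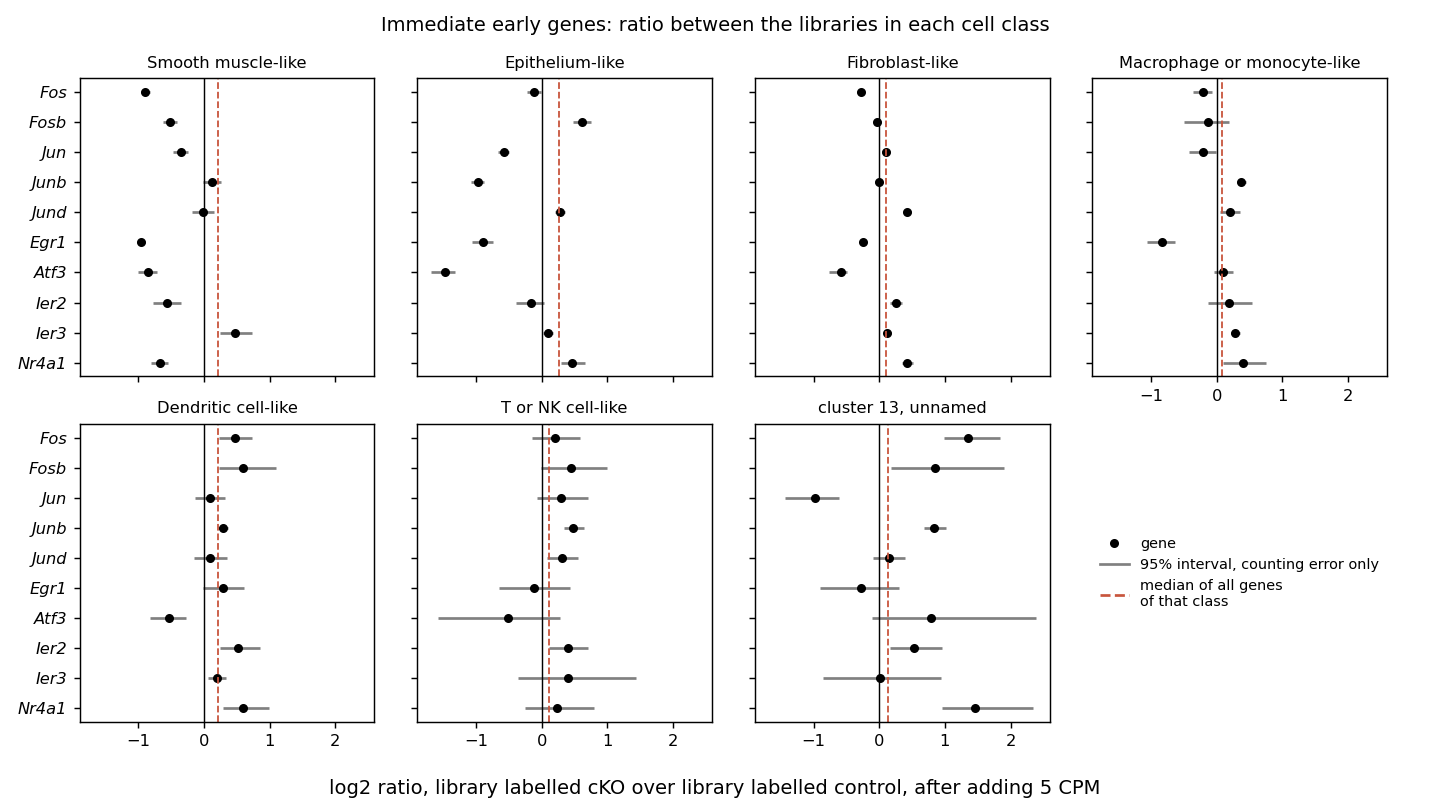
Log2 ratio of each gene, library labelled cKO over library labelled control, in the 7 cell groups with at least 100 cells in both; points are ratios after adding 5 CPM, bars 95% intervals for counting error, the dashed line the median of all genes of that class. In smooth muscle-like cells 7 of the 10 points lie at or below -0.36, left of the dashed line at 0.21, while Junb, Jund and Ier3 lie near or above 0.

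Smooth muscle-like cells consisted of clusters 12, 17 and 24, and the high levels came from cluster 17 (84 control, 248 cKO cells; 5 of 7 smooth muscle markers passed, with Myh11 among the leading genes). Summed over the 10 genes, cluster 17 was at 24102 CPM in the control and 13070 CPM in the cKO library. Fos was at 6902 and 3239 CPM there (log2 ratio -1.09) and Egr1 at 7389 and 3378 CPM (-1.13). Atf3 (1328 and 648 CPM) and Nr4a1 (1713 and 924 CPM) were lower as well. For Junb (987 and 919 CPM), Jund (637 and 658 CPM) and Ier3 (256 and 279 CPM) the interval of the ratio held 0 in this cluster.

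Cluster 12 (217 and 342 cells), led by contractile genes such as Actg2, Acta2 and Cnn1 and shallow, with a median depth 0.284 times that of its library, carried much less of these transcripts. The 10 genes summed to 3025 CPM in the control and 2026 CPM in the cKO library. Fos was at 528 and 178 CPM (log2 ratio -1.54, -1.93 to -1.22) and Egr1 at 800 and 354 CPM (-1.17, -1.44 to -0.92). The summed levels of these 2 genes were thus lower in the cKO library in this cluster too, where most cells held few of these UMIs, as given below. Of the 10 genes, 4 had intervals below 0 in this cluster and none had one above 0, again without the share of all genes. The intervals that held 0 included those of Jun (290 and 267 CPM), Junb (365 and 399 CPM), Jund (333 and 278 CPM) and Ier3. Cluster 24 had 12 control cells only, and its summed level was 3429 CPM against 3065 CPM in 90 cKO cells.

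**Figure D3:**
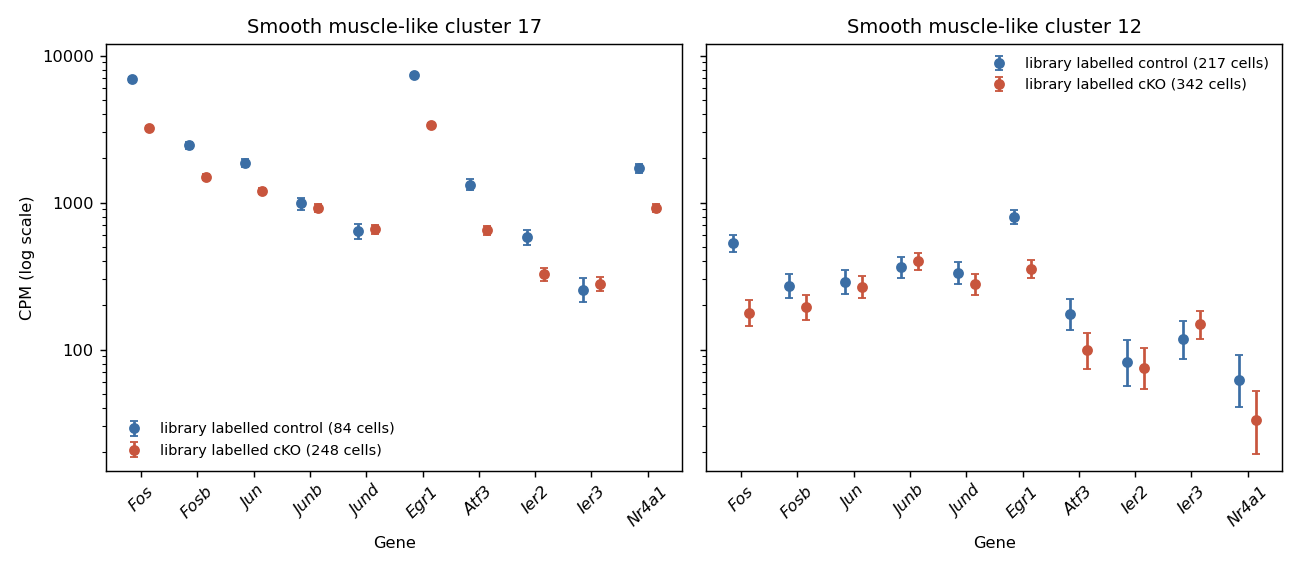
Level of each gene (CPM, log axis) in smooth muscle-like clusters 17 and 12, by library; points are levels of the summed cells and bars 95% Poisson intervals. Fos, Egr1 and Atf3 are lower in the library labelled cKO in both clusters, and Junb and Ier3 overlap between the libraries in both.

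Among single cells thinned to 1000 UMIs each, the difference in cluster 17 ran through most of the distribution. The median control cell held 17.5 UMIs of the 10 genes, the median cKO cell 6. At least 10 such UMIs were found in 69.0% of control cells (exact binomial 95% interval 58.0% to 78.7%) and 37.9% of cKO cells (31.8% to 44.3%). After thinning, 75% of control and 52.8% of cKO cells had a Fos UMI; before it, 84.5% and 68.1% had one, and the median cell held 5187 and 3880 UMIs. In cluster 12 the median was 1 UMI in both libraries, and 6.91% of control against 3.22% of cKO cells held at least 10, with overlapping intervals. Cells with none had the opposite order there, 41.9% of control and 36.0% of cKO cells. Over all smooth muscle-like cells the median was 2 UMIs in both libraries. Of these cells 31.0% (control) and 23.7% (cKO) had none, and 23.6% and 16.3% held at least 10. Without the cell richest in the 10 genes in each library, which held 6.05% of their control and 4.78% of their cKO UMIs, the median log2 ratio in smooth muscle-like cells was -0.53.

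**Figure D4:**
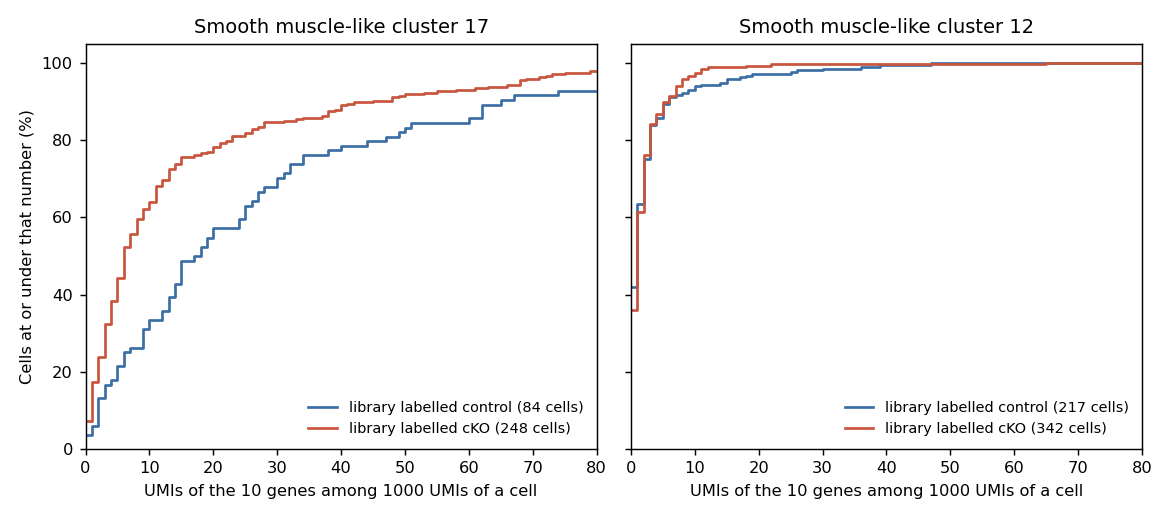
Cumulative share of cells (vertical axis, percent) by number of UMIs of the 10 genes among 1000 UMIs of a cell (horizontal axis, up to 80) in smooth muscle-like clusters 17 and 12. In cluster 17 the control curve lies to the right, with a median of 17.5 against 6; in cluster 12 both medians are 1.

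Other measures also differed between the libraries in these cells. Summed over 7 smooth muscle markers, cluster 17 was at 2132 CPM in control and 3009 CPM in cKO cells, and cluster 12 at 14340 and 9658 CPM. The 6 epithelial markers summed to 107 and 12.4 CPM and the 6 fibroblast markers to 739 and 492 CPM in smooth muscle-like cells. The median mitochondrial share was 2.47% and 1.44% in all of these cells, 1.20% and 1.15% in cluster 17, and 3.40% and 2.54% in cluster 12. The 7 T or NK cell markers summed to 5.29 and 3.82 CPM and the 7 macrophage markers to 18.0 and 10.0 CPM. Of the former 6 were at 0 in control and 3 in cKO cells, and of the latter 5 and 2, but the cKO sum holds more cells. The part of these in the result was not tested.

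Most relatives of the 10 genes had log2 ratios above 0 in smooth muscle-like cells, as did the median of all genes (0.21). Of 16 measured AP-1 and CREB/ATF relatives, 14 were higher and 2 lower in the cKO library (median log2 ratio 0.37). List medians here stand beside 0.21 for all genes, and those of fibroblast-like cells beside 0.10. In smooth muscle-like cells only the medians of these relatives and of the integrated stress response genes lay above that of all genes. Fosl2, a Fos family member usually made later than Fos, was at 504 and 852 CPM (0.75, 0.61 to 0.91) and Atf6, an endoplasmic reticulum stress factor, at 57.2 and 101 CPM (0.77), while Jdp2 was lowest (-0.52). Of 28 other early response regulators, 18 were higher and 10 lower (median 0.07), with Arc (-0.93) and Egr2, the closest relative of Egr1 in the list (-0.79), lowest and the Id proteins Id3 (0.80) and Id1 (0.77) highest. Among 40 feedback and signalling genes, 25 were higher and 15 lower (median 0.07), from Rgs1 (-1.24) and Plk2 (-0.71) to the ERK phosphatase gene Dusp6 (0.76) and Tnfaip3 (0.98).

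Heat shock genes were split, with 8 higher and 7 lower of 15 (median 0.01). The inducible chaperone gene Hspa1a was at 504 and 344 CPM (log2 ratio -0.54) and Hspb1 at 709 and 510 CPM (-0.47), whereas Hsf2 was at 115 and 195 CPM (0.73) and Dnajb4 at 215 and 303 CPM (0.49). Of 15 integrated stress response genes, 12 were higher and 3 lower (median 0.36). Gdf15, a secreted stress cytokine, was at 250 and 57.8 CPM (-2.02, -2.44 to -1.79), and Nupr1 at 51.9 and 22.9 CPM (-1.03), while Chac1 (1.02) and Sesn2 (0.92) were highest. Of 24 upstream kinases and SRF partners, 14 were higher and 10 lower (median 0.15), among them Elk3, an SRF partner, at 54.0 and 22.5 CPM (-1.10), Mrtfa (-0.53), Creb1 (0.70) and the JNK gene Mapk8 at 73.1 and 147 CPM (0.96).

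Fibroblast-like cells (845 control, 1293 cKO) held the 10 genes at equal summed levels, 3851 and 3840 CPM, with 5 genes higher and 5 lower. Atf3 was lowest in ratio (87.9 and 57.1 CPM, -0.58), then Fos (455 and 373 CPM, -0.28) and Egr1 (994 and 836 CPM, -0.25). Jund (335 and 451 CPM) and Nr4a1 (185 and 249 CPM) were higher, each with a log2 ratio of 0.42. None was past 2-fold, where 0.872% of all genes were lower and 1.73% higher. The equal sum hid unequal clusters: the summed level was higher in the cKO library in 4 of the 5 clusters with at least 20 cells in both.

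Cluster 18 (101 and 120 cells), a collagen-rich cluster led by Col3a1 and Col1a1, carried the most, 10968 CPM in control and 15420 CPM in cKO cells, and all 10 genes had a positive log2 ratio there. Ier2 was at 173 and 385 CPM (1.13, 0.84 to 1.47), Nr4a1 at 281 and 584 CPM (1.04, 0.81 to 1.30), Jund at 662 and 1257 CPM (0.92) and Fos at 1654 and 2746 CPM (0.73). Egr1, already at 4307 CPM, was at 5382 CPM in cKO cells (0.32). So Fos, Egr1 and Nr4a1 differed in opposite directions in this cluster and in smooth muscle-like cluster 17; the difference between the clusters was not tested. The summed fibroblast markers of cluster 18 were at 21549 CPM in control and 11269 CPM in cKO cells and its median mitochondrial share at 2.08% and 3.81%, whose part in the result was not tested. Cluster 25 (15 control, 222 cKO cells) was low in the 10 genes, at 1894 CPM in cKO cells, and without it the median log2 ratio of fibroblast-like cells was 0.30 in place of 0.05. For related lists, 14 of 16 AP-1 and CREB/ATF relatives were higher in fibroblast-like cells (median 0.19; Atf5 0.70, Creb1 0.51, Fosl1 -0.66), as were 20 of 27 other early response regulators (median 0.15; Nr4a3 0.74, Klf9 0.38, Id2 -0.62, Arc -0.92).

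Feedback and heat shock genes of fibroblast-like cells were near an even split, and the other 2 lists were mostly higher in the cKO library. Of 39 feedback and signalling genes, 17 were higher and 22 lower (median -0.05), with Rgs2 at 17.4 and 55.3 CPM (1.42) and Rhob at 132 and 298 CPM (1.15) against Gadd45b (-0.68) and Dusp6 (-0.67), the latter higher in smooth muscle-like cells. Heat shock genes were 7 higher and 8 lower (median -0.04; Hspa1a 0.33, Hsf2 0.28, Hsp90aa1 -0.30, Dnajb1 -0.31). Integrated stress response genes were 11 higher and 4 lower (median 0.22; Xbp1 0.98, Atf5 0.70, Sesn2 -0.18, Nupr1 -0.39). Upstream kinases and SRF partners were 17 higher and 6 lower (median 0.16; Mapk3 0.61, Creb1 0.51, Map2k3 -0.21, Mrtfb -0.29).

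Epithelium-like cells (1313 control, 110 cKO) had 6 genes lower and 4 higher in the cKO library, with a median log2 ratio of -0.14 (-0.30 to 0.02) beside 0.26 for all genes. Atf3 was at 514 CPM in control and 182 CPM in cKO cells (log2 ratio -1.48, -1.69 to -1.32) and was the only member past 2-fold lower, a side on which 7.21% of all genes lay. None was past 2-fold higher, against 13.6% of all genes. Junb (1295 and 660 CPM, -0.97), Egr1 (493 and 265 CPM, -0.89) and Jun (1255 and 841 CPM, -0.58) were lower, and Fosb (236 and 364 CPM, 0.61) and Nr4a1 (152 and 213 CPM, 0.47) higher. The last 2 depended on the clusters summed. Without clusters drawn over 90% from 1 library the Fosb ratio was 0.04, and averaged over clusters that of Nr4a1 was -0.28. Junb was thus lower here, where it was near equal in smooth muscle-like cells. In the same cells the smooth muscle markers summed to 31.1 and 217 CPM, the mesothelial markers to 1736 and 970 CPM and the epithelial markers to 10860 and 12239 CPM, and the median mitochondrial share was 4.54% and 2.74%. The part of these in the result was not tested.

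Single rich cells and clusters drawn almost wholly from the control library entered the epithelial sums. One cKO cell with 260185 UMIs made up 19.3% of the class total. Without it and the richest control cell, Atf3 stayed lower (log2 ratio -1.12) and so did Junb (-0.77), but Fos changed from -0.11 to 0.21 and Ier3 from 0.09 to -0.24. Cluster 8, with 224 control cells and 1 cKO cell, was the deepest, at a median of 36572 UMIs per control cell. Cluster 2 held 272 control and 0 cKO cells. Cluster 10 was small, with 36 control and 2 cKO cells and a median of 2668 UMIs per control cell. It held the 10 genes at 20598 CPM in control cells, of which Junb was 5865 CPM. Cluster 9, the epithelium-like cluster with the most cKO cells (293 and 80), had 7216 and 5145 CPM in sum, with Jun at 1483 and 749 CPM (-0.98) and Atf3 at 368 and 168 CPM (-1.11).

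Macrophage or monocyte-like cells (310 and 225) held more Junb and Ier3 in the cKO library. Junb was at 1203 and 1563 CPM (log2 ratio 0.38, 0.30 to 0.45) and Ier3 at 1401 and 1706 CPM (0.28, 0.21 to 0.35). Egr1 went the other way, 269 and 149 CPM (-0.83, -1.07 to -0.64), but 1 control cell held 323 of the 722 control UMIs. The Egr1 ratio was -0.0070 without the richest cell of each library and 0.31 once the cells with the highest doublet scores were left out, where Fos changed from -0.21 to 0.05. Of the 10 genes 6 were higher and 4 lower (median 0.14), none past 2-fold, where 2.48% of all genes were lower and 1.2% higher. In dendritic cell-like cells (160 and 210), Junb was at 1539 and 1875 CPM (0.28, 0.21 to 0.36; 0.069 under another scaling of the libraries), Ier3 was at 441 and 508 CPM (0.20; -0.01 under that scaling), and 9 of 10 genes were higher, Atf3 being the exception (146 and 99.7 CPM, -0.53). Their median of 0.28 (0.14 to 0.48) lay near the 0.22 of all genes. None was past 2-fold, beside 4.04% lower and 3.71% higher of all genes, and 1 control cell held 45.1% of the control Fos UMIs of its class. Of the 9 higher genes, only Fos and Junb stayed higher under all 15 alternatives in the processing. Egr1, Ier2, Jun and Nr4a1 were lower in the cKO library after thinning each cell to 1000 UMIs. Epithelial markers summed to 699 and 148 CPM and macrophage markers to 172 and 440 CPM in these cells, and their part in the result was not tested.

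Lymphoid cells had low levels and a lead of Junb. In T or NK cell-like cells (191 and 426), Junb was at 517 and 724 CPM (log2 ratio 0.48, 0.33 to 0.64), Ier2 at 144 and 191 CPM (0.40, 0.11 to 0.71) and Jund at 233 and 289 CPM (0.31, 0.08 to 0.55). The other 7 genes had intervals that held 0. In these cells fibroblast markers summed to 410 and 31.6 CPM, macrophage markers to 108 and 12.5 CPM and T or NK cell markers to 1453 and 2083 CPM, and their part in the result was not tested. For Fos the level was slightly higher in the cKO library (102 and 118 CPM) while the share of cells with a UMI was lower (19.4% and 12.4% at median depths of 4076 and 3489 UMIs), so no order is read from it. The median was 0.30 with bounds of -0.12 to 0.68, and no gene was past 2-fold, beside 4.44% lower and 2.15% higher of all genes.

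Cluster 13 (132 and 288 cells), led by Il2rb, Gzma and Runx3 and left unnamed for want of markers, had the highest median of the 7 groups, 0.66. Fos (78.8 and 208 CPM, 1.35) and Nr4a1 (22 and 118 UMIs, 1.47) were past 2-fold higher, on a side that held 3.53% of all genes, and none was past 2-fold lower, against 3.59%. Both rested on 1 cKO cell, which held 170 of the 273 Fos UMIs and 66 of the 118 Nr4a1 UMIs. Without the richest cell of each library the Fos ratio was 0.22, that of Nr4a1 0.43 and the median of the 10 genes -0.0025, whereas Junb kept its difference (498 and 896 CPM, 0.84; 0.88 without those cells). Jun went the other way, 144 and 70.9 CPM (-0.97, -1.44 to -0.61), and was past 2-fold lower (-1.13) without those cells.

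Over the 19 clusters with at least 20 cells in both libraries, the summed level of the 10 genes was higher in the cKO library in 14 and lower in 5, both smooth muscle-like clusters among the latter. The other 3 were epithelium-like clusters 0 and 9 and fibroblast-like cluster 14. Jund was higher in 17 of the 19, Ier3 in 16, Junb in 15 and Nr4a1 in 14, while Fos (10 higher, 9 lower), Egr1 (9 and 10) and Atf3 (8 and 11) were divided. Egr1 had intervals below 0 in 8 clusters and above 0 in 6, but these cover counting error only. Among those below 0, the ratio in macrophage or monocyte-like cells was -0.0070 without the richest cell of each library. Whether the direction of Egr1 differs between clusters was not tested. Clusters of 1 library pair share that pair, and the median of all genes was also above 0 in most of them.

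**Figure D5:**
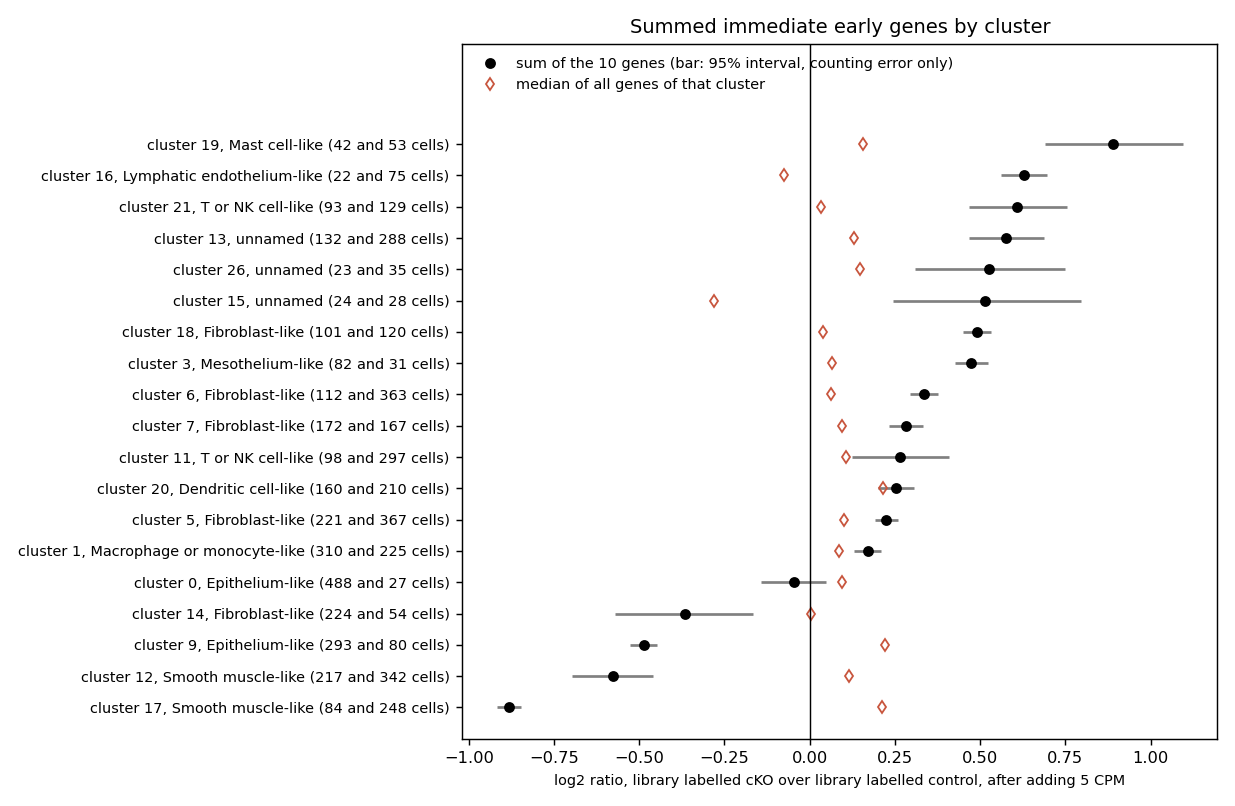
Log2 ratio of the summed level of the 10 genes, library labelled cKO over library labelled control, in the 19 clusters with at least 20 cells in both (control and cKO cells in parentheses); bars are 95% intervals for counting error, and open diamonds give the median of all genes of the cluster. Both smooth muscle-like clusters are at the low end (-0.88 and -0.58), and 14 clusters lie above 0.

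Another 3 classes had too few cells for the comparison above, and their values stand as a description. Mesothelium-like cells (82 and 31) were higher in all 10 genes in the cKO library, with Atf3 at 459 and 1032 CPM and Junb at 664 and 1193 CPM. Lymphatic endothelium-like cells (22 and 75) had Junb at 1290 and 2646 CPM and Nr4a1 at 147 and 444 CPM, but Egr1 at 1124 and 746 CPM. Mast cell-like cells (42 and 53) had Ier3 at 1518 and 2918 CPM and Junb at 446 and 1013 CPM. In each of the 3, the counting intervals of Junb did not overlap between the libraries.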

How the data were processed

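Whole uterus was measured by droplet single-cell RNA sequencing (10x 3′ v3) in 2 libraries, 1 per group, mapped to groups by the sample titles. The authors deposited gene by barcode tables of UMI counts, not normalized; their headers name Cell Ranger 4, whereas the submitters' processing notes name Cell Ranger 6.1.1 and the build mm10. From the deposited counts, droplets were kept as cells from 1000 UMIs and 500 genes upward if mitochondrial UMIs made up no more than 20%, and clustered with scanpy 1.11.5 (2000 variable genes without the 10 genes and the related lists, 30 components, 15 neighbours, Leiden resolution 1.0). A cluster was named from at least 3 markers found in at least 25% of its cells and at 2 times the median level over clusters or more. Scrublet marked 4 of 7076 cells (0.0565%), too few to have worked, so no doublets were removed in the main values.

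UMIs were summed per class and library and divided by the class total (CPM). Levels have exact Poisson, shares exact binomial (Clopper-Pearson) and ratios exact conditional 95% intervals, and UMIs limit only counting error. Genes with at least 10 CPM in either library formed the background of a class. No test was possible with 1 library per group. The code recovered known ratios in Poisson counts simulated from summed cells, which lack the spread between cells of the real counts. This checks the code and not the intervals in real data. The text names all 10 genes, the 2 highest and 2 lowest genes of each related list in the smooth muscle and fibroblast classes, and the 10 genes most like the summed level; 1 gene that this rule names is not reported here. The genes and lists were chosen with earlier results of these data known. Counting by strand is not given in the sources used here, and Junos, Prdx2, Gm11175 and Gm24748 overlap Jun, Junb, Jund and Atf3 on the opposite strand.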

Additional observations from a re-analysis of the deposited data

Results flagged for a closer look

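The median log2 ratio of the 10 genes lay below 0 in smooth muscle-like cells (-0.54, bounds -0.70 to -0.39) and above 0 in dendritic cell-like cells (0.28, bounds 0.14 to 0.48), a gap of 0.822 on the log2 scale. It is listed because the bounds of the 2 classes lie on opposite sides of 0. The difference between the classes was not tested, since each group is 1 library. In dendritic cell-like cells the median of all genes was 0.22, and there the median of the 10 genes fell to 0.07 under another scaling of the libraries.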

How the results depend on the processing

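The median log2 ratios of the 6 named classes were recomputed under 15 to 21 alternatives per class, from 14 planned and 10 added after seeing the data. The medians of smooth muscle-like and dendritic cell-like cells, whose bounds left out 0, changed sign under none of theirs. Cluster 13 was recomputed only without the richest cell of each library, which took its median from 0.66 to -0.0025. In smooth muscle-like cells the median was negative under all 18 alternatives that apply to them. It moved to -0.75 with median of ratios scaling, to -0.36 with the mean of each cell's own CPM and to -0.86 without cluster 12. Median of ratios scaling, which lowers all ratios of a class by 0.09 to 0.22, gave -0.33 in epithelium-like, -0.053 in fibroblast-like and 0.072 in dendritic cell-like cells. It also put 3 genes past 2-fold lower in smooth muscle-like cells (0 otherwise) and 3 in epithelium-like cells (1 otherwise, 0 after thinning each cell to 1000 UMIs). The share of all genes past 2-fold was not recounted on that scale, so these counts have no background. The same scaling turned Junb in smooth muscle-like cells to -0.10. Without cluster 17, Jun there was 0.11, and Jund ran from -0.42 to 0.12. Thinning gave 0.058 in dendritic cell-like and 0.19 in fibroblast-like cells. Without clusters drawn over 90% from 1 library the median was -0.44 in epithelium-like and 0.30 in fibroblast-like cells, and averaged over clusters it was -0.31 and 0.25. Fibroblast-like cells gave 0.20 with the mean of each cell's own CPM, and -0.10, -0.18, -0.0091 and 0.30 without clusters 5, 6, 7 and 25, so their median has no stable sign. Macrophage or monocyte-like cells gave 0.30 without the highest doublet scores. The causes of these shifts were not tested. No paired analysis was possible because each group has 1 library. Low levels limit the rest: Atf3 and Ier3 in T or NK cell-like cells rest on 16 to 41 UMIs per library.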
